A study of Danio rerio with 6 samples.

Results

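MicroRNAs (miRNAs) of 7 families that mark blood and immune cells (miR-142, miR-144, miR-146, miR-150, miR-155, miR-223 and miR-451) were examined in zebrafish embryos of irradiated and of non-exposed parents. The members were every entry of the deposited miRNA table whose family number is one of these, with both arms of a hairpin, which gave 13 of the 464 mature miRNAs listed. Small RNA was sequenced from whole embryos of the AB wild-type strain at 5.5 h post fertilization (hpf), the stage of 50% epiboly, with 3 libraries per group and a pool of 100 embryos per library. F1-γ embryos came from parents irradiated with a cobalt gamma source at 8.7 mGy/h during gametogenesis, to 5.2 Gy in total, and mated 1 year after the exposure. F1-C embryos came from non-exposed parents kept separately. All embryos of both groups were of the same strain and genotype and were themselves not irradiated. The question was whether parental irradiation left a difference in the small RNAs of the offspring.

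A miRNA is cut from a hairpin precursor, loaded as a short single strand into an Argonaute protein, and pairs through its seed with messenger RNAs that are then repressed. The families studied here are best known from blood. miR-144 and miR-451 are made from the same primary transcript in red blood cell precursors, and miR-451 is processed by Argonaute 2 in place of Dicer. miR-142 and miR-223 mark white blood cells, miR-150 accumulates in mature lymphocytes of mammals, and miR-146 and miR-155 are induced by immune signalling in mammals. At 50% epiboly the embryo is at the onset of gastrulation and has no circulating blood, and its miRNAs are dominated by the miR-430 family, which clears maternal messenger RNA. In these libraries miR-430 entries took between 83.9% and 88.4% of the miRNA counts.

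Of the sequences, the seed of miR-150-5p is shown because this miRNA had the highest ratio of F1-γ to F1-C among the members tested. It is copied from the target predictions of the study, which list the human orthologue.
miR-150-5p seed: CUCCCAA
The capitals mark the seed itself, written 5′ to 3′, and no other mature sequence was used here. In the RefSeq annotation of another zebrafish assembly (GRCz12tu), 12 of the 13 members matched 9 miRNA genes by name. The entry dre-miR-142-3p, which carries no letter, was the one without a match. The genes of miR-144 and miR-451 were direct neighbours in that annotation. No coordinates are given, because the reads had been mapped to GRCz10.

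The total miRNA count per library was between 704953 and 1464131. The library size was corrected with factors from the trimmed mean of M-values (TMM) method, which assumes that most miRNAs do not differ between libraries. Levels are given as CPM, the number of counts per 1000000 of the library size corrected in this way. On this scale a single count was worth between 0.68 and 1.52 CPM. All 78 member values were whole numbers within 1e-09, although 16.1% of the values in the whole table were fractions from the weighting of multimapping reads. The members ranked between 44th and 345th of the 464 miRNAs by mean CPM, and 11 of the 13 had a count in every library. The testing minimum was 60 counts summed over the 6 libraries, which 213 miRNAs reached. Among them were 7 members, and the other 6 had too few counts.

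None of the 7 tested members was called different between F1-γ and F1-C, where a call required that the log2 fold change (log2 FC) exceed 0.6 in either direction and that the p of edgeR's quasi-likelihood test, adjusted by Benjamini-Hochberg over all miRNAs tested, stay below 0.05. Over all 213 miRNAs tested, 11.7% were called. At an unadjusted p below 0.05 there was 1 member, compared with 20.7% of all miRNAs tested. With edgeR's exact test and with DESeq2, 1 member was called, and it was the same member, miR-150-5p. Those tests called 31 and 27 of the 213 miRNAs tested. For 2 of the 7 members the CPM of the groups did not overlap, miR-150-5p and miR-144-5p, both higher in F1-γ. Among all tested miRNAs, 13.1% were higher in F1-γ without overlap and 14.1% lower. The median log2 FC was 0.12 over the 7 members and -0.05 over all miRNAs tested. The pools of a group are described as biological replicates, and the tests of edgeR and DESeq2 set the difference between groups against the spread between pools.

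**Figure D1:**
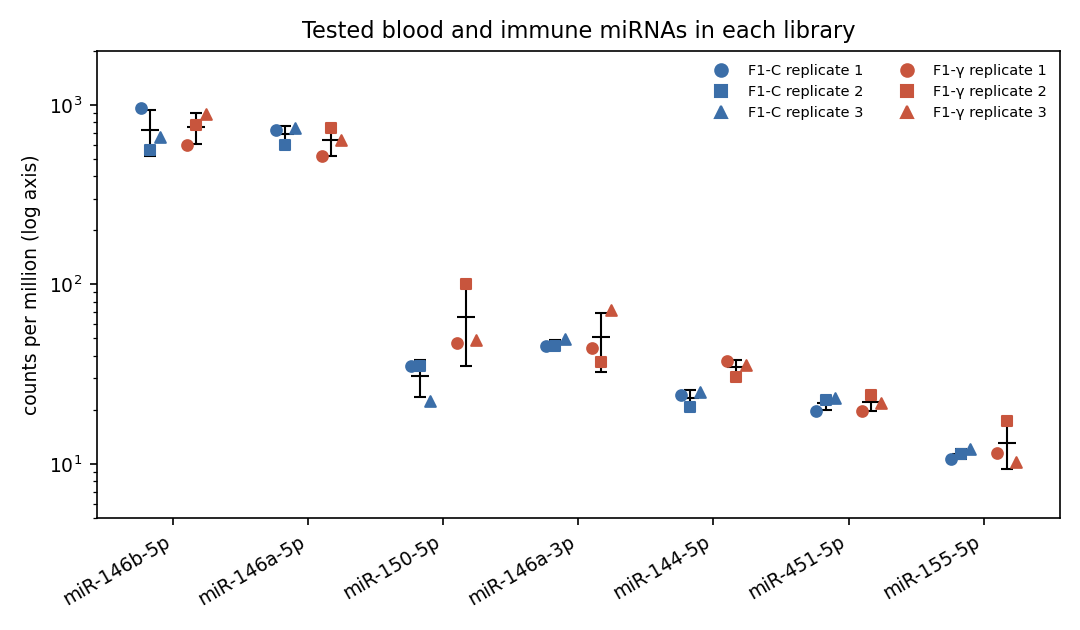
CPM (log axis) of the 7 tested members in each library, with circles, squares and triangles for replicates 1, 2 and 3, and black bars for the mean ± SD of 3 libraries. miR-146a-5p and miR-146b-5p lie above 500 CPM in every library, and the F1-γ points lie above all F1-C points only for miR-150-5p and miR-144-5p.

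Among the immune miRNAs, miR-150-5p, which restrains the transcription factor c-Myb in mammalian lymphocytes, was counted 23, 34 and 26 times in F1-C against 69, 145 and 71 times in F1-γ. Scaled to CPM these were 34.9, 35.1 and 22.5 in F1-C against 46.9, 100.5 and 48.6 in F1-γ. Every F1-γ library was above every F1-C library, and the second F1-γ library stood well above the other F1-γ libraries. The F1-C mean was 30.8 ± 7.23 CPM (SD, n = 3), and the F1-γ mean was 65.3 ± 30.5 CPM (SD, n = 3). The log2 FC was 1.10 with a standard error of 0.353, a 2.14-fold difference, and the adjusted p of 0.073 from edgeR's quasi-likelihood test missed the threshold. The log2 FC was positive in all 15 alternative settings, between 0.75 and 1.40, and miR-150-5p was called in 8 of them. These settings reuse the same libraries, whose groups did not overlap, so the shared sign is no separate support. Over the 15 settings the adjusted p-values of the edgeR and DESeq2 fits were between 0.000282 and 0.215. Without the second F1-γ library the log2 FC was 0.75 (adjusted p = 0.126 in edgeR), and without the first it was 1.38 (adjusted p = 0.000282 in edgeR). Leaving out any F1-C library gave adjusted p-values between 0.110 and 0.215 in the same edgeR test. When the minimum stated in the methods of the study, more than 30 counts in every library, was applied here to the deposited counts, miR-150-5p was left out, since 2 F1-C libraries had fewer.

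**Figure D2:**
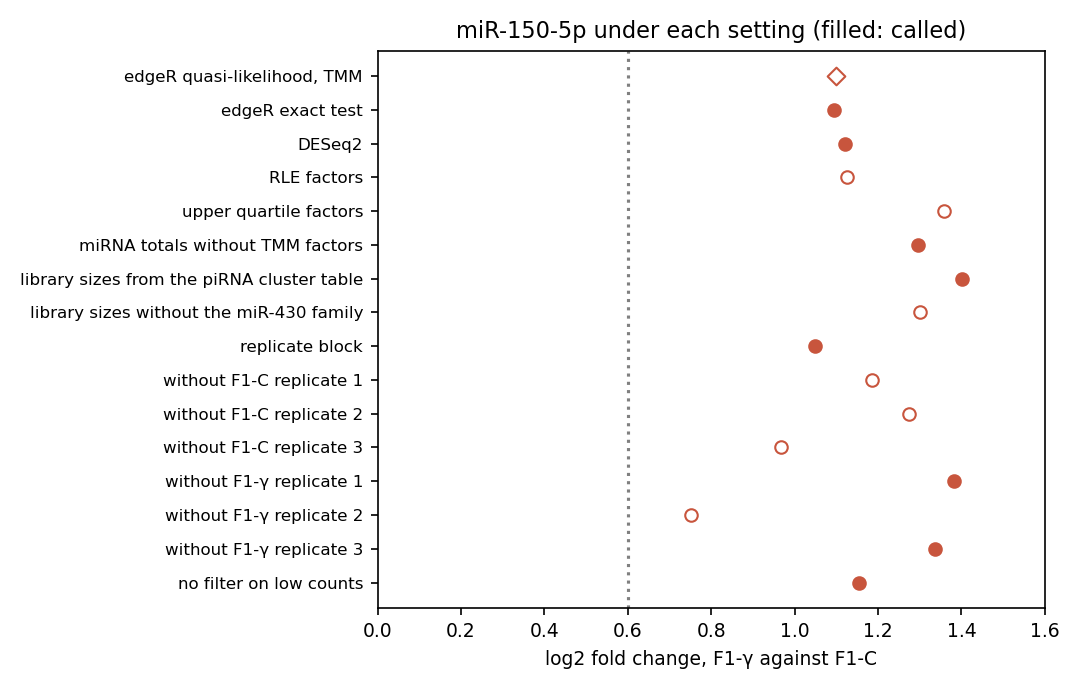
Log2 fold change of miR-150-5p, F1-γ against F1-C (horizontal axis), under the edgeR quasi-likelihood test (diamond) and 15 alternatives (circles), where filled symbols passed both thresholds and the dotted line marks a log2 fold change of 0.6. All points lie between 0.75 and 1.40, and 8 circles are filled.

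miRNAs of other tissues were summed in each library for comparison. The summed CPM of the 10 listed muscle miRNAs (miR-1, miR-133 and miR-206), of which 4 had no count in any library, was between 36.4 and 45.6 in F1-C and between 65.9 and 137.7 in F1-γ, without overlap. Of the 3 muscle miRNAs tested, 1 was called higher, miR-1-3p, with a mean of 26.6 CPM in F1-C and 76.7 CPM in F1-γ. Over all 213 miRNAs tested, 4.69% were called higher. For miR-133a-3p and miR-206-3p the groups overlapped and neither was called (adjusted p = 0.364 and 0.325 in edgeR). The neural miRNAs (miR-9 and miR-124, 8 listed, none at 0) summed to between 982.9 and 1148 CPM in F1-C and between 798.5 and 1102 CPM in F1-γ, so these groups overlapped. The largest entries were miR-124-2/3/5-5p (means of 548.1 CPM in F1-C and 414.7 in F1-γ) and miR-9-5p (397.7 and 470.3). miR-124-3p had only 6 counts in all libraries together. The single liver miRNA, miR-122, was between 16.5 and 23.4 CPM in F1-C and between 19.4 and 34.0 CPM in F1-γ, again with overlap. The part of other tissues in the values of miR-150-5p was not tested. In such bulk samples, a change in the number of cells of a type and a change in RNA per cell cannot be told apart.

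The miR-146 family held most of the member counts. In mammals miR-146 is induced by NF-kB and represses the adaptors TRAF6 and IRAK1, in a brake on innate immune signalling. miR-146a-5p and miR-146b-5p together took between 84.5% and 91.0% of the member counts in each library. miR-146a-5p had 721.6, 596.8 and 738.3 CPM in F1-C against 515.8, 745.9 and 636.3 CPM in F1-γ. The lowest and the highest of these 6 values were both in F1-γ. Its log2 FC was -0.12 (standard error 0.194, adjusted p = 0.799 in edgeR), and its sign changed with the scaling of the libraries. miR-146b-5p, which shares its seed with miR-146a-5p, had 960.1, 560.6 and 663.0 CPM in F1-C against 596.6, 772.9 and 887.7 CPM in F1-γ. Here the extremes were both in F1-C, and the log2 FC was 0.05 (standard error 0.234, adjusted p = 0.946 in edgeR). The ratio of miR-146b-5p to miR-146a-5p was between 0.90 and 1.33 in F1-C and between 1.04 and 1.40 in F1-γ. These 2 arms were the only members with more than 30 counts in every library. At that minimum 9.02% of all miRNAs tested were called, and neither arm was (log2 FC 0.07 and 0.23, adjusted p = 0.819 and 0.572 in edgeR), nor did either have an unadjusted p below 0.05, as 27% of all miRNAs tested there did. edgeR's exact test and DESeq2 also called neither.

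The less abundant arm miR-146a-3p was counted 30, 44 and 57 times in F1-C against 65, 53 and 105 times in F1-γ, or 45.6, 45.4 and 49.3 CPM against 44.2, 36.7 and 71.9 CPM. The F1-C libraries lay close together, within the range of the F1-γ libraries. The log2 FC was 0.12 (standard error 0.286, adjusted p = 0.888 in edgeR), and without the third F1-γ library it was -0.15. The share of the 5p arm among the counts of both arms needs no scaling between libraries. For miR-146a the F1-C share was 93.6% ± 0.584 (SD, n = 3) and the F1-γ share 92.4% ± 2.74 (SD, n = 3, two-sided exact permutation test, p = 0.6, adjusted p = 0.9 over 3 hairpins). For miR-146b, whose 3p arm had 24 counts in all 6 libraries, the F1-C share was 99.3% ± 0.283 (SD, n = 3) and the F1-γ share 99.7% ± 0.0657 (SD, n = 3). These groups did not overlap, with p = 0.1 in the exact permutation test, which cannot reach a lower p with 3 libraries in each group (adjusted p = 0.3). The gap was narrow, with a highest F1-C share of 99.633% and a lowest F1-γ share of 99.643%. In those libraries the 3p arm had 2 and 4 counts, so the separation rests on very few counts.

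miR-155-5p, which is induced in activated lymphocytes and macrophages of mammals, was close to the count minimum. It was counted 7, 11 and 14 times in F1-C against 17, 25 and 15 times in F1-γ. The CPM were 10.6, 11.4 and 12.1 in F1-C against 11.6, 17.3 and 10.3 in F1-γ, so that the groups overlapped and the second F1-γ library stood highest, as it did for miR-150-5p. The log2 FC was 0.19 with a standard error of 0.385 (adjusted p = 0.865 in edgeR).

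Both red blood cell miRNAs were counted before any circulating blood, at low levels. The miR-144 hairpin is known in zebrafish for the control of alpha-globin expression, but its arm miR-144-3p had only 7 counts in all libraries together. What the 5p arm does in these embryos was not tested. miR-144-5p was counted 16, 20 and 29 times in F1-C against 55, 44 and 52 times in F1-γ. Its CPM were 24.3, 20.7 and 25.1 in F1-C against 37.4, 30.5 and 35.6 in F1-γ, without overlap. This held also, in a check added after the data had been seen, when libraries were scaled to miRNA totals, to totals without miR-430 or to the piRNA cluster counts. The means of 23.4 ± 2.37 CPM and 34.5 ± 3.57 CPM (SD, n = 3 each) gave a log2 FC of 0.56 with a standard error of 0.271, a 1.48-fold difference. It did not pass the threshold in edgeR (unadjusted p = 0.0617, adjusted p = 0.268), nor in any of the 15 alternatives.

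miR-451-5p, needed for the maturation of red blood cells in zebrafish, was counted 13, 22 and 27 times in F1-C against 29, 35 and 32 times in F1-γ. After scaling, the libraries were nearly level, with 19.7, 22.7 and 23.4 CPM in F1-C against 19.7, 24.3 and 21.9 CPM in F1-γ. The log2 FC was -0.01 with a standard error of 0.292 (adjusted p = 0.978 in edgeR), and its sign changed in 12 of the 15 alternatives. miR-144-5p and miR-451-5p are thus listed at similar levels in F1-C, with 1.23, 0.91 and 1.07 counts of miR-144-5p per count of miR-451-5p, and in F1-γ the ratios were 1.90, 1.26 and 1.63. The groups did not overlap, with p = 0.1 in a two-sided exact permutation test, the lowest p possible here (adjusted p = 0.2 over the 2 ratios computed). This ratio was chosen after its values had been seen, so the test does not count as independent evidence.

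The other arm, miR-144-3p, was counted 0, 0 and 4 times in F1-C against 1, 0 and 2 times in F1-γ. A count of 0 in the first F1-C library allows a level of up to 4.56 CPM (3 counts). The 5p arm took between 87.9% and 100% of the counts of the hairpin in F1-C (mean 96.0%) and between 96.3% and 100% in F1-γ (mean 98.2%, exact permutation test, p = 1).

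**Figure D3:**
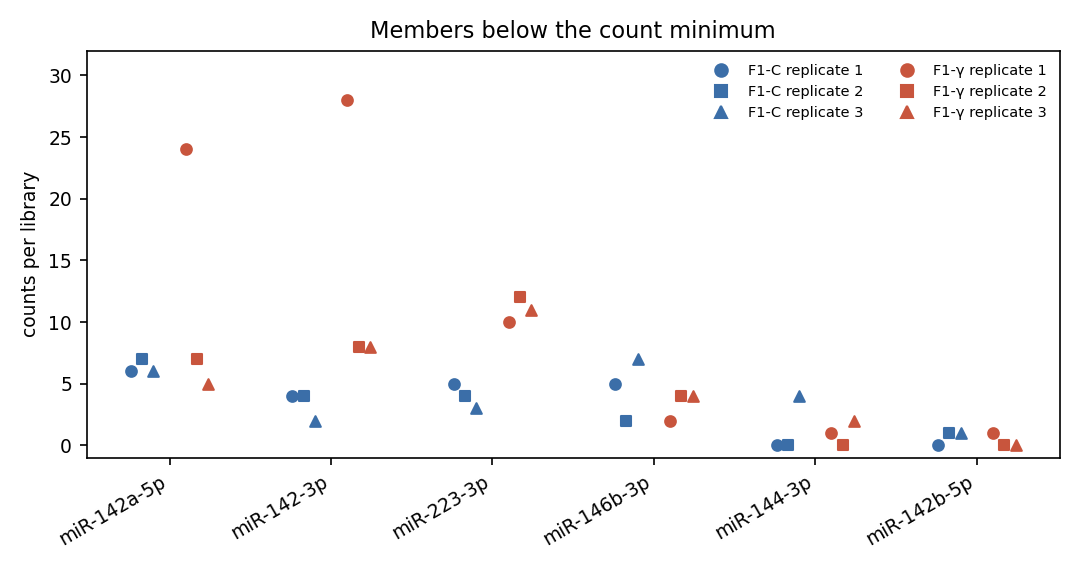
Counts per library (vertical axis) of the 6 members below the count minimum, with circles, squares and triangles for replicates 1, 2 and 3. The first F1-γ library holds 28 counts of miR-142-3p and 24 of miR-142a-5p, and no other library holds more than 8 of either.

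The 6 members under the count minimum had between 3 and 55 counts in all libraries together. miR-142 is a marker of white blood cells and is required in zebrafish for the formation of blood stem cells. miR-142-3p was counted 4, 4 and 2 times in F1-C against 28, 8 and 8 times in F1-γ. For miR-142a-5p the counts were 6, 7 and 6 in F1-C against 24, 7 and 5 in F1-γ. The first F1-γ library stood apart for both entries. The 3p entry carries no letter, so whether they come from the same hairpin is not known. The other F1-γ libraries had 5.55 and 5.48 CPM of miR-142-3p, within the F1-C range of 1.73 to 6.08 CPM. For miR-142a-5p they had 4.85 and 3.42 CPM, below the F1-C range of 5.19 to 9.12 CPM. The same library did not have the highest counts of the other white blood cell miRNAs miR-150-5p, miR-155-5p and miR-223-3p. Of the F1-γ libraries it had the highest CPM of the liver miRNA (34.0), the highest neural sum (1102) and the lowest muscle sum (65.9). Its neural sum lay within the F1-C range (982.9 to 1148). Its liver value and muscle sum lay above the F1-C ranges (16.5 to 23.4 and 36.4 to 45.6). The part of other tissues in the miR-142 counts was not tested. miR-142b-5p had 2 counts in F1-C and 1 in F1-γ over 3 libraries each.

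miR-223-3p, a neutrophil miRNA that limits inflammation at wounds in zebrafish, was counted 5, 4 and 3 times in F1-C against 10, 12 and 11 times in F1-γ. The raw counts did not overlap, but the F1-γ libraries were deeper, and the CPM of 7.60, 4.13 and 2.60 in F1-C overlapped with 6.80, 8.32 and 7.53 in F1-γ. Pooled over 3 libraries, this was 4.31 CPM (95% exact Poisson interval 2.23 to 7.53) in F1-C and 7.54 CPM (5.19 to 10.6) in F1-γ. The intervals cover counting error only. miR-223-3p was below the count minimum, and with no filter on low counts its log2 FC was 0.79 (standard error 0.710, adjusted p = 0.745 in edgeR). miR-146b-3p had between 2 and 7 counts in F1-C and between 2 and 4 in F1-γ. In a fit with no filter on low counts, over 399 miRNAs, 12 were called higher and 15 lower. None of these 6 low members was among them. There miR-142-3p had the lowest adjusted p, 0.247 in edgeR (log2 FC 1.46, standard error 0.697), and it was the only one with an unadjusted p below 0.05.

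**Figure D4:**
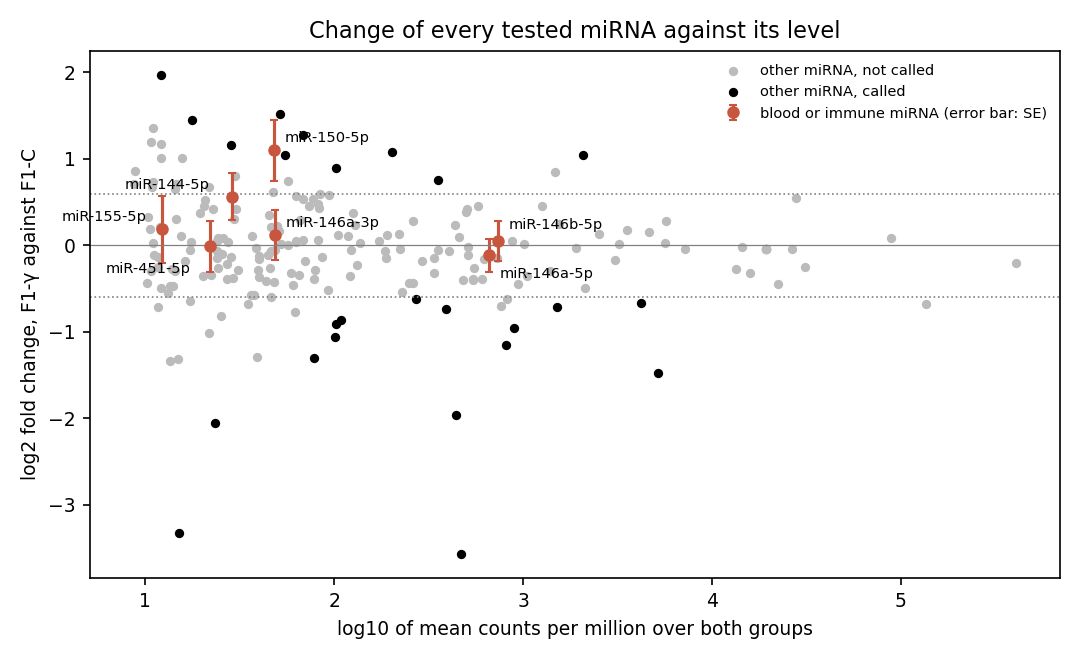
Log2 fold change of F1-γ against F1-C (vertical axis) against the log10 of mean CPM for the 213 miRNAs tested, with the 7 members in red with their standard errors and the called miRNAs in black. The red points lie between -0.12 and 1.10, none of them called, and only miR-150-5p lies beyond the dotted line at 0.6.

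As a whole, the 13 members summed to 1847, 1311 and 1554 CPM in F1-C against 1317, 1750 and 1733 CPM in F1-γ. The sums overlapped, with means ± SD of 1571 ± 268.4 and 1599.8 ± 245.2 CPM (n = 3 libraries each). The ratio of the means was 1.02 on the TMM scale and 1.17 without TMM factors. The 9 members outside the miR-146 family, a selection made after the values had been seen and therefore not tested, summed to 112.4, 106.3 and 96.9 CPM in F1-C against 159.0, 191.3 and 134.3 CPM in F1-γ. Only 4 of these 9 reached the count minimum. Among them miR-150-5p and miR-144-5p were higher in F1-γ without overlap, as were 13.1% of all miRNAs tested. For miR-155-5p and miR-451-5p the groups overlapped. Leaving out miR-146, where the groups overlapped, raises the part without overlap by selection alone. Of other miRNA families with known roles in blood cells or vessels (miR-21, miR-24, miR-125, miR-126, miR-181, miR-221, miR-222, miR-462 and miR-731), 19 of the 40 listed entries were tested. Of these 19, 1 was called higher and 2 lower, with a median log2 FC of -0.36. Over all tested miRNAs 4.69% were called higher and 7.04% lower, and the median log2 FC was -0.05.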

How the data were processed

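Per the labels and the methods of the paper, the authors trimmed reads with Trim Galore (0.3.7), filtered them by quality and length, and quantified miRNAs with miRDeep2 against miRBase, dividing the weight of a read among the loci it mapped to. The deposited miRNA values are therefore estimated counts, not scaled to library size. Reads of near-identical miRNAs can be split between entries. The deposited piRNA cluster values are also estimated counts and served only as library totals in one alternative.

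Estimated counts were rounded to whole numbers. TMM factors and the quasi-likelihood test of edgeR 4.0.16 (R 4.3.3) compared the 2 groups over all miRNAs with 60 or more summed counts, and again over those with more than 30 counts in every library, the minimum of the study. The lower minimum was used because most members fall below that of the study. Calls required an adjusted p below 0.05 and an absolute log2 FC above 0.6. Standard errors are the log2 FC divided by the square root of F. Arm shares were compared by exact permutation tests for hairpins with 100 or more counts. Every member was described, those reaching 60 counts with each library's value. Alternatives were the exact test of edgeR, DESeq2 1.42.0, other scalings, a replicate block, leaving out each library, and no filter. The procedure was tested on simulated data. Chi-square values per degree of freedom between replicate libraries were between 31.6 and 580.1, so no pair was counted as 1 library. 1 F1-γ title holds a pair of replicate numbers, and the one unused elsewhere in its group was taken. The members and lists were chosen with earlier results of these data known. The snRNA and lincRNA tables were not used here.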

Additional observations from a re-analysis of the deposited data

How the results depend on the processing

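At the minimum of 60 summed counts, 25 miRNAs were called, 10 higher and 15 lower. With edgeR's exact test 31 were called, and with DESeq2 27. The count was 11 with library sizes from the piRNA cluster table, 14 with library sizes without the miR-430 family, and between 7 and 42 with 1 library left out. Without TMM factors 13 were higher and 9 lower, as the median log2 FC of all miRNAs moved from -0.05 to 0.15, and with upper-quartile factors 12 were higher and 9 lower (median 0.20). At the minimum of the study, 11 were called, 17 with DESeq2, 2 with piRNA cluster library sizes and between 4 and 26 with 1 library left out. The count of members called went from 0 to 1, miR-150-5p, with edgeR's exact test, DESeq2, no TMM factors, piRNA cluster library sizes, the replicate block and no filter, and was between 0 and 1 with 1 library left out (1 without the first or the third F1-γ library). At the minimum of the study it stayed at 0 under all alternatives run, but miR-150-5p was below that minimum in each of them and could not be called there.

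The replicate block gave 32 calls and a log2 FC of 1.05 for miR-150-5p (adjusted p = 0.0154 in edgeR). Deviations of libraries with the same number correlated with r = 0.040, 0.190 and 0.114 across miRNAs. Each F1-γ library correlated best with the F1-C library of its own number, and the other pairs had r between -0.19 and 0.087. The first F1-C library, however, correlated best with the third F1-γ library (r = 0.087). The labels state no pairing, so the quasi-likelihood test of the 2 groups was left unpaired. Whether the numbers pair the samples was not settled.

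Values near 0 changed sign. miR-451-5p had a log2 FC of 0.022 with DESeq2, 0.020 with RLE factors, 0.23 with upper-quartile factors, 0.19 without TMM factors, 0.22 with piRNA cluster library sizes, 0.16 without miR-430, 0.045 without a filter and between -0.074 and 0.16 with 1 library left out. miR-146a-5p had 0.14 with upper-quartile factors, 0.081 without TMM factors, 0.15 with piRNA cluster library sizes, 0.063 without miR-430 and between -0.15 and 0.10 with 1 library left out. At the minimum of the study it had -0.014 with DESeq2 and with RLE factors, -0.27 with upper-quartile factors and between -0.038 and 0.15 with 1 library left out, and miR-146b-5p had -0.089 with upper-quartile factors. With 1 library left out, miR-146b-5p was between -0.048 and 0.29 and miR-146a-3p between -0.15 and 0.41. The cause was not tested. miR-144-5p and miR-155-5p kept their sign and were not called in any alternative. Members under 60 summed counts are limited by depth, where 1 count is about 1 CPM.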
